A study of Mus musculus with 6 samples.

Results

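The genes described here encode the working parts of the lysosome, measured by RNA sequencing of mouse muscle. They are 40 genes chosen by name, out of 52110 named lines in the table of read counts: 15 hydrolases, 3 proteins that act with hydrolases in the lumen, 6 membrane proteins, 2 transcription factors and 14 genes of the proton pump. All 40 were found in the table, each on 1 line, and all 40 had enough reads to be tested. The study has 6 libraries, all from muscle of wild-type c57b6l mice. Of these, 3 are labelled click response-treated and 3 EDC response-treated, and the labels do not say what click and EDC are. The series design speaks of separate mice, so each library was taken as 1 animal. The labels give no dose, time, route, age or name of the muscle, and neither group is labelled as untreated, so directions are those of click relative to EDC.

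The lysosome is the acidic compartment in which cells break down proteins, glycans, lipids and glycogen that arrive by uptake from outside or by autophagy. Its soluble hydrolases work at low pH, which is kept by the vacuolar proton pump, a rotary machine whose membrane sector (V0) carries protons and whose cytosolic sector (V1) splits ATP. Macrophages are rich in lysosomes, and muscle fibres need the organelle too: loss of the glycogen-degrading hydrolase GAA causes Pompe disease of muscle, and loss of LAMP2 causes Danon disease. The transcription factors TFEB and TFE3 bind promoters of many lysosomal genes when they enter the nucleus.

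The libraries held 34472421 to 39305779 reads each, and differed in composition. As a sum, the 10 markers of muscle fibres were abundant in every library, at 104521 to 156999 CPM in click and 74448 to 115356 CPM in EDC. CPM are read counts scaled to a common library size with TMM factors. Click replicate 2 and EDC replicate 3 stood at opposite ends for macrophage and fibroblast markers. Replicate 1 of each group held Xist reads, and the other 4 libraries held reads of the Y-linked Ddx3y instead. The ratio of mt-Atp6 reads to those of Gm10925, its nuclear copy, splits the libraries into a class above 0.5 (click replicate 2, EDC replicates 1 and 3) and a class below it. For 11 of the 40 genes, annotated exons overlap those of another gene, and whether strand was used in counting is not given. The overlapping gene held at most 13.7% as many reads as the lysosomal gene, except at Ppt1, and the partners of Arsb and 1 of those of Npc1 had no line in the table under that name. In bulk tissue, fewer cells of a type and less RNA per cell cannot be told apart.

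Most lysosomal genes lay lower in click muscle than in EDC muscle, with a larger median difference for the hydrolases than for the proton pump. The 40 genes together took 0.181% to 0.326% of the reads of the click libraries and 0.494% to 1.05% of those of the EDC libraries. These shares are taken without TMM factors, and mitochondrial reads made up 18.9% to 30.2% of reads in click and 14.8% to 17.9% in EDC. With TMM factors the groups differed less, at sums of 3311, 2345 and 2972 CPM in click and 4515, 4712 and 7988 CPM in EDC. The log2 fold change was negative in 38 of 40, with a median of -0.89, where the median over all 15797 genes tested was 0.02. Tfeb and Atp6v1f were the exceptions. The 3 click values lay below the 3 EDC values in 27 of the 40 genes, and in 12.4% of all genes tested. None of the 40 lay wholly above, where 1554 of all 15797 genes tested did.

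No lysosomal gene passed the threshold of 0.05 in edgeR's quasi-likelihood test with Benjamini-Hochberg adjustment over all genes, in which 1 gene of the whole table passed (0.00633%). The adjusted p of the 40 genes ran from 0.298 to 0.933. At an unadjusted edgeR p under 0.05, 26 of the 40 were lower in click, against 8.0% of all genes. At the same p 0 of the 40 were higher, against 1141 of all 15797 genes tested. The DESeq2 Wald test called 15 of the 40, all lower in click, against 2.43% of the genes it adjusted. That number dropped to 1 once EDC replicate 3 was left out, to 5 for click replicate 2 and to 8 for EDC replicate 1. The edgeR count of 26 became 13 without EDC replicate 3. By limma-voom 0 of the 40 passed, as did 0 of all genes, and 26 had p under 0.05 before adjustment. The share over all genes was not worked out for that 26 or for the counts with a library left out. With library totals in place of TMM factors the median over all genes moved to -0.45, and all 40 lysosomal genes were then negative. EDC replicate 3 was the highest library for 33 of the 40 genes and click replicate 2 the lowest for 30.

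**Figure D1:**
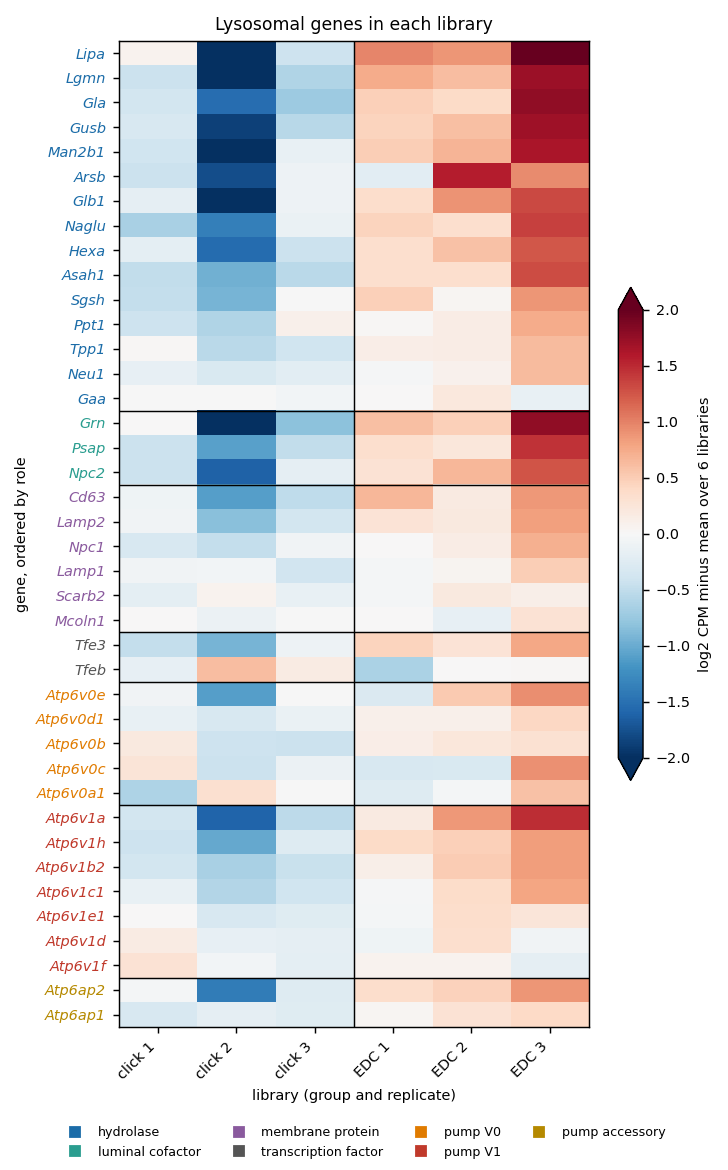
Level of each of the 40 lysosomal genes (rows, ordered and coloured by role) in each of the 6 libraries (columns), as log2 CPM minus the gene's mean over the libraries; the colour scale stops at 2 in either direction. Most hydrolase rows run from blue in click replicate 2 to red in EDC replicate 3, while the rows of Gaa, Scarb2, Mcoln1, Atp6v1d and Atp6v1f are pale throughout.

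Per base of merged exon, the levels spanned a wide range. Levels are given here in RPKM (CPM per kilobase of all annotated exons of a gene, merged), as mean ± SD over 3 libraries. Psap was the highest, at 251 ± 57.9 RPKM in click and 669.7 ± 338 RPKM in EDC. Lamp1 followed at 187 ± 22.9 RPKM in click and 237 ± 49.1 RPKM in EDC. These are a precursor of lipid-degrading cofactors and the main glycoprotein of the lysosomal membrane. Averaged over all libraries Lgmn came next, at 33.6 ± 16.4 RPKM in click and 133 ± 59.9 RPKM in EDC. The next gene, Hexa, stood at 33.6 ± 14.2 RPKM in click and 87.6 ± 29.5 RPKM in EDC, so the order of these neighbours is within the spread, and in click the pump gene Atp6v1f stood above both. Averaged over all libraries Tfe3 was the lowest, at 1.08 ± 0.302 RPKM in click and 2.12 ± 0.3897 RPKM in EDC. Sgsh, at 1.13 ± 0.356 RPKM in click and 2.17 ± 0.628 RPKM in EDC, was within the spread of Tfe3. In EDC Mcoln1 stood below both, at 1.89 ± 0.313 RPKM, also within their spread. Merged exons overstate the length of genes with many annotated transcripts, which lowers their RPKM.

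Some of the promoters of these genes hold a known sequence feature. The genes were chosen as lysosomal genes, and TFEB and TFE3 bind promoters of many such genes. The share of promoters with the feature is thus not independent of the choice. RefSeq start sites on build GRCm38.p6 were available for 35 of the 40 genes, in windows of 300 bases. The heptamer TCACGTG, searched on both strands, holds the E-box CACGTG and is the core of the element bound by TFEB and TFE3. It was found in windows of 12 of the 35 genes (34.3%), and in windows of 4.29% of all 27025 genes in the RefSeq table. The same 12 genes held CACGTG, which 8.09% of all genes hold. The longer palindromic form of the element, CACGTG with GT before it and AC after it, was in 0 of the 35 genes and in 0.37% of all genes. Both hydrolases (6 of 14) and pump genes (4 of 11) carried the heptamer. The median log2 fold change of the 12 genes with it was -0.86 and that of the 23 without it was -0.85. Windows of 7 genes are shown because they place the heptamer both at genes with low click levels and at genes with little difference. Each runs from 110 bases before the start site to 20 bases from it on, 5′ to 3′ on the gene's strand, with each heptamer in capitals.
Lgmn (chr12:102439073-102439202, minus strand, the downstream of its pair of start sites): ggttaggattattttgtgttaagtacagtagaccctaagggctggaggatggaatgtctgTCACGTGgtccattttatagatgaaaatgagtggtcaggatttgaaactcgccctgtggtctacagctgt
Glb1 (chr9:114400968-114401097, plus strand): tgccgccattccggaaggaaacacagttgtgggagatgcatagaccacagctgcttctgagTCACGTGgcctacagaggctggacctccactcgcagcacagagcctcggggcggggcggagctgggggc
Naglu (chr11:101069984-101070113, plus strand): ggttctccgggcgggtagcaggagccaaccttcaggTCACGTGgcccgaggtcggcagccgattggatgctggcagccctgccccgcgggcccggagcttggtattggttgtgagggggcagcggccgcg
Lamp1 (chr8:13159051-13159180, plus strand): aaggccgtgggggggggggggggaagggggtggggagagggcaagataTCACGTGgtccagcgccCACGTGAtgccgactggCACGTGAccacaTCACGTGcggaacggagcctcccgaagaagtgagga
Mcoln1 (chr8:3500409-3500538, plus strand): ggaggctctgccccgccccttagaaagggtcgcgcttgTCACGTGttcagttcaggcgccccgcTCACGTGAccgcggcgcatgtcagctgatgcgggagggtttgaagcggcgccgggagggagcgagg
Atp6v0b (chr4:117887310-117887439, minus strand): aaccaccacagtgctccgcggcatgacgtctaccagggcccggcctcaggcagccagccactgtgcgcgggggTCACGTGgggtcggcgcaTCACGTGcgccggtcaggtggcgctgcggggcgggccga
Atp6v0d1 (chr8:105566045-105566174, minus strand): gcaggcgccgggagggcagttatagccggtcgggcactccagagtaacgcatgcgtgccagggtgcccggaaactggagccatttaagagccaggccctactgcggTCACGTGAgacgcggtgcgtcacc
Lamp1 holds 4 sites in this window, and Mcoln1 and Atp6v0b hold 2 each. A match is a description of the letters and not a measured binding site.

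All 15 hydrolases had negative log2 fold changes, with a median of -1.42. In 12 of them every click library lay below every EDC library. An unadjusted edgeR p under 0.05 was found for 12, and DESeq2 called 7 (Lgmn, Gla, Gusb, Man2b1, Naglu, Hexa and Asah1). The most negative log2 fold changes were those of Lipa and Lgmn, and Gaa was nearly level between the groups. Below, levels are given in replicate order, and a value in parentheses with its standard error (SE) is the log2 fold change of click relative to EDC from edgeR.

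Lgmn encodes legumain, a cysteine protease that cuts after asparagine and activates cathepsins; the gene (ENSMUSG00000021190.14) spans 102394084 to 102439813 on the minus strand of chromosome 12 (mm10). Its level was 106, 34.7 and 93.6 CPM in the click libraries and 238, 219 and 468 CPM in the EDC libraries. The groups were apart, with click replicate 2 lowest and EDC replicate 3 highest. The log2 fold change was -1.98 (SE 0.50), with an edgeR adjusted p of 0.298 and a DESeq2 adjusted p of 0.00542. Lipa, lysosomal acid lipase, which frees cholesterol and fatty acids from lipoprotein lipids, lies on chromosome 19 from 34492318 to 34527474 (minus strand, mm10). It was found at 63.2, 4.81 and 45.2 CPM in click and 119, 111 and 264 CPM in EDC. Click replicate 2 held 132 reads of Lipa where the other 5 libraries held 1746 to 13278, a span of 54.98-fold in CPM that was the widest of the 40 genes. The log2 fold change of -2.12 (SE 0.84) had an edgeR adjusted p of 0.313 and was not called by DESeq2 (adjusted p = 0.0708).

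Glycan-degrading enzymes formed the bulk of the hydrolases. Gla, alpha-galactosidase A, the enzyme deficient in Fabry disease, stood at 10.6, 4.77 and 8.28 CPM in click and 19.1, 17.9 and 47.1 CPM in EDC. For Gusb, beta-glucuronidase, the values were 39.3, 13.4 and 33.6 CPM in click and 66.9, 74.7 and 158 CPM in EDC. Man2b1, lysosomal alpha-mannosidase, gave 35.3, 9.72 and 41.9 CPM in click and 65.6, 74.2 and 144 CPM in EDC. In all 3 genes the groups were apart, with click replicate 2 lowest and EDC replicate 3 highest. Their log2 fold changes were -1.83 (SE 0.47), -1.80 (SE 0.50) and -1.71 (SE 0.57). Glb1, beta-galactosidase, was at 10.97, 2.51 and 11.5 CPM in click and 15.8, 22.97 and 30.9 CPM in EDC (-1.48, SE 0.56). Hexa, the alpha chain of beta-hexosaminidase, which is lost in Tay-Sachs disease, was at 89.9, 35.3 and 76.3 CPM in click and 129.6, 154 and 241 CPM in EDC (-1.38, SE 0.40). Both again lay lower in every click library than in any EDC library.

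Enzymes that degrade heparan and other sulphated glycans were among the genes with few reads. Naglu, alpha-N-acetylglucosaminidase, was at 6.300, 3.82 and 9.04 CPM in click and 13.4, 12.5 and 25.4 CPM in EDC (-1.42, SE 0.41). Sgsh, the heparan sulphamidase, was at 4.82, 3.53 and 6.66 CPM in click and 9.37, 6.89 and 12.4 CPM in EDC (-0.93, SE 0.33), with click replicate 3 only just below EDC replicate 2. Arsb, arylsulphatase B, went from 14.2, 5.61 and 17.8 CPM in click to 16.6, 57.1 and 37.00 CPM in EDC (-1.55, SE 0.56). Its groups overlapped, since click replicate 3 lay above EDC replicate 1, and EDC replicate 2 was its highest library.

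Most of the remaining hydrolases act on lipids, proteins or glycogen, and Neu1 acts on glycans. Asah1, acid ceramidase, was at 35.3, 25.5 and 34.2 CPM in click and 62.8, 62.3 and 122 CPM in EDC, with a log2 fold change of -1.38 (SE 0.32). Its unadjusted edgeR p of 0.00308 was the lowest of the hydrolases. Tpp1, tripeptidyl peptidase, was at 69.7, 47.3 and 51.9 CPM in click and 75.3, 75.6 and 107 CPM in EDC (-0.61, SE 0.24). Ppt1 and Neu1, a depalmitoylating thioesterase and a sialidase, gave -0.61 (SE 0.28) and -0.48 (SE 0.22) at an unadjusted edgeR p of 0.0617 and 0.0646. Exons of Ppt1 overlap those of Cap1 on the opposite strand, and Cap1 held 141% to 309% as many reads, so the value of Ppt1 is uncertain. Gaa, acid alpha-glucosidase, which degrades glycogen, lies on chromosome 11 from 119267887 to 119285454 (plus strand, mm10). Its level was 100.2, 99.8 and 96.7 CPM in click and 101, 117 and 91.1 CPM in EDC. The 6 libraries spanned 1.28-fold, the narrowest span of the 40 genes, and the groups overlapped. The log2 fold change of Gaa was -0.056 (SE 0.17; edgeR adjusted p = 0.886), and its sign turned without EDC replicate 2 and within the read class above 0.5.

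**Figure D2:**
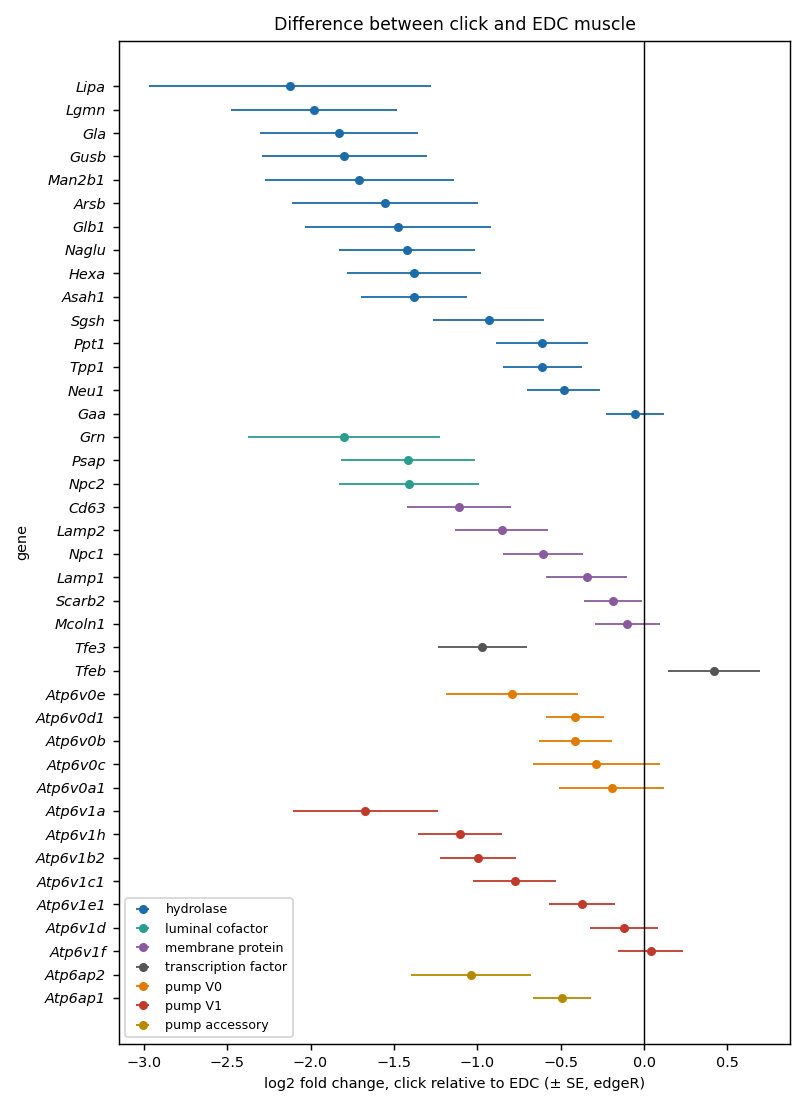
Log2 fold change of each of the 40 lysosomal genes in click relative to EDC muscle, with bars for the standard error from edgeR (n = 3 libraries per group), ordered by role and coloured by it. Values run from -2.12 for Lipa to 0.42 for Tfeb, and within the V1 sector from -1.67 for Atp6v1a to 0.039 for Atp6v1f.

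The 3 luminal proteins that serve the hydrolases lay lower in every click library, and DESeq2 called all 3. Psap encodes prosaposin, which is cut into the saposins that present sphingolipids to their hydrolases; the gene (ENSMUSG00000004207.14) spans 60277627 to 60302597 on the plus strand of chromosome 10 (mm10). It was at 796, 506 and 763 CPM in click and 1347, 1258 and 2907 CPM in EDC, and took 21.6% to 25.7% of the reads of the 40 genes in click and 26.7% to 36.4% in EDC. The log2 fold change was -1.42 (SE 0.40), with a DESeq2 adjusted p of 0.0205. Grn, progranulin, whose loss causes a lysosomal storage disease of neurons, was at 65.00, 15.8 and 36.4 CPM in click and 98.5, 89.8 and 219.9 CPM in EDC (-1.80, SE 0.57). Npc2, which hands cholesterol to the membrane transporter NPC1, was at 95.1, 41.6 and 113 CPM in click and 157, 202 and 304 CPM in EDC (-1.41, SE 0.42). The edgeR adjusted p was 0.298 for each of these genes.

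Membrane proteins had a median log2 fold change of -0.47 over 6 genes, all negative. Cd63, a tetraspanin of lysosomes and exosomes, was at 140.4, 69.5 and 105 CPM in click and 236, 170.2 and 273 CPM in EDC (-1.11, SE 0.31), and DESeq2 called it (adjusted p = 0.0365). The pseudogene Cd63-ps carried reads equal to 6.96% to 10.7% of those of Cd63, so the split of reads between them is uncertain. Lamp2, needed for the fusion of autophagosomes with lysosomes, was at 137, 80.5 and 111 CPM in click and 175, 165 and 255 CPM in EDC (-0.85, SE 0.28). The groups were apart for both genes. Npc1, the cholesterol exporter that receives its load from NPC2, was at 27.8, 24.7 and 32.8 CPM in click and 34.9, 38.4 and 56.6 CPM in EDC (-0.61, SE 0.24).

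The other membrane genes had smaller differences. Lamp1, whose promoter window above holds 4 heptamers, lies on chromosome 8 from 13159161 to 13175338 (plus strand, mm10). Its level was 532, 539 and 429 CPM in click and 542, 577 and 785 CPM in EDC. The groups of Lamp1 were apart, though click replicate 2 lay just under EDC replicate 1. Its log2 fold change was -0.34 (SE 0.24, edgeR adjusted p = 0.494). Mcoln1, the calcium channel through which lysosomes activate TFEB, was at 13.8, 12.6 and 13.6 CPM in click and 13.8, 12.2 and 16.9 CPM in EDC (-0.10, SE 0.19). The sign of the Mcoln1 value turned without EDC replicate 3 and within the read class below 0.5. Scarb2, the receptor that carries glucocerebrosidase to lysosomes, spanned 94.2 to 123 CPM over all libraries (-0.18, SE 0.18), and its sign turned within the read class above 0.5. The groups of Mcoln1 and Scarb2 overlapped.

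The 2 transcription factor genes had opposite signs. Tfe3 lies on chromosome X from 7762560 to 7775202 (plus strand, mm10). It was at 9.92, 7.25 and 12.8 CPM in click and 18.7, 16.5 and 23.6 CPM in EDC. Every click library lay below every EDC library, and the log2 fold change was -0.97 (SE 0.27; edgeR adjusted p = 0.298; DESeq2 adjusted p = 0.0454). Tfeb was at 20.9, 35.7 and 26.2 CPM in click and 14.98, 23.3 and 23.6 CPM in EDC. The groups overlapped, with click replicate 2 highest and EDC replicate 1 lowest, which is not the order seen in the hydrolases. The log2 fold change of Tfeb was 0.42 (SE 0.28; edgeR adjusted p = 0.467) and became -0.06 with library totals in place of TMM factors. A test of the difference between the 2 genes was not run.

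**Figure D3:**
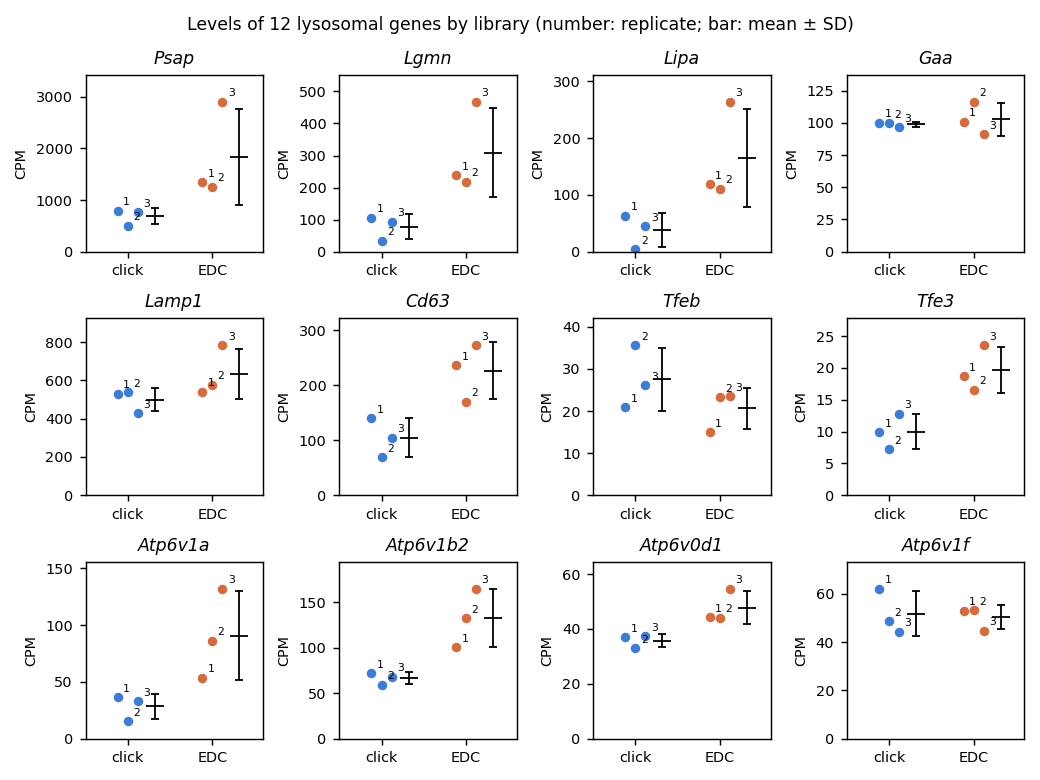
Level in CPM of 12 lysosomal genes in the 3 click and 3 EDC libraries (points, numbered by replicate), with the mean ± SD of each group beside them and axes starting at 0. Psap, Lgmn, Lipa and Atp6v1a have EDC replicate 3 highest and click replicate 2 lowest, while Gaa and Atp6v1f overlap between the groups.

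Proton pump genes had a median log2 fold change of -0.45, with 13 of 14 negative and 7 of 14 apart between the groups. Of the 7 genes of the V1 sector, 4 had an unadjusted edgeR p under 0.05. Atp6v1a encodes the catalytic A subunit that splits ATP; the gene (ENSMUSG00000052459.13) spans 44085402 to 44139705 on the minus strand of chromosome 16 (mm10). It was at 36.7, 15.6 and 33.1 CPM in click and 53.7, 86.4 and 132 CPM in EDC (-1.67, SE 0.43). Atp6v1b2, the B subunit that alternates with A in the V1 ring, was at 71.7, 59.3 and 68.4 CPM in click and 100.5, 132 and 165 CPM in EDC (-0.996, SE 0.23). Click libraries of Atp6v1b2 lay close together and the EDC libraries lay higher and further apart. Atp6v1h, a subunit that couples V1 to V0, was at 16.3, 10.7 and 18.3 CPM in click and 28.5, 30.2 and 38.7 CPM in EDC (-1.10, SE 0.25). Its unadjusted edgeR p of 0.00305 was the lowest of the 40 genes. DESeq2 called Atp6v1a, Atp6v1b2 and Atp6v1h, with adjusted p of 0.0122, 0.0116 and 0.01205. Atp6v1c1, the C subunit that leaves when the pump comes apart, was at 38.3, 28.2 and 32.2 CPM in click and 41.5, 54.6 and 72.9 CPM in EDC (-0.78, SE 0.25).

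Stalk and rotor genes of V1 were closer to level. Atp6v1e1, the E subunit of the outer stalks, gave -0.37 (SE 0.20), and Atp6v1d, the D subunit of the central rotor, gave -0.12 (SE 0.20). Atp6v1f, the F subunit that sits with D on the rotor, was at 62.2, 48.7 and 44.3 CPM in click and 53.1, 53.3 and 44.7 CPM in EDC (0.039, SE 0.19; edgeR adjusted p = 0.933). The groups overlapped in all 3 genes. The sign of Atp6v1f turned to -0.47 with library totals and was negative in 5 other settings. Per merged exon length Atp6v1f was the highest of the pump genes, at 48.6 ± 8.77 RPKM in click and 47.4 ± 4.62 RPKM in EDC, and Atp6v1h the lowest, at 1.55 ± 0.4002 and 3.33 ± 0.557 RPKM.

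Among the 5 genes of the V0 sector, the groups were apart only for Atp6v0d1. This gene, which encodes the d subunit joining the stalk to the membrane rotor, was at 37.01, 32.96 and 37.4 CPM in click and 44.4, 44.1 and 54.7 CPM in EDC (-0.42, SE 0.17), with an unadjusted edgeR p of 0.0467. Atp6v0e, a small membrane subunit, was at 27.5, 13.5 and 28.7 CPM in click and 23.7, 41.6 and 55.3 CPM in EDC (-0.79, SE 0.40). Atp6v0a1, the a subunit that forms the proton path, was at 16.4, 31.5 and 24.9 CPM in click and 21.1, 24.5 and 37.7 CPM in EDC (-0.19, SE 0.32), with its lowest value in click replicate 1. Both overlapped between the groups. The proteolipid genes of the rotor ring, Atp6v0b and Atp6v0c, gave -0.41 (SE 0.22) and -0.29 (SE 0.38). The signs of Atp6v0a1 and Atp6v0c were not stable, with positive values without EDC replicate 3 (0.09 and 0.24).

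Both accessory genes lay lower in every click library. Atp6ap1, which helps to assemble V0, was at 52.5, 57.7 and 55.5 CPM in click and 66.9, 80.03 and 86.4 CPM in EDC (-0.49, SE 0.17). Atp6ap2, the (pro)renin receptor, which is bound to the pump, was at 42.5, 16.6 and 36.7 CPM in click and 55.7, 60.4 and 80.9 CPM in EDC (-1.04, SE 0.36). DESeq2 called neither gene.

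Set side by side, the hydrolases had a larger median difference between the groups than the proton pump. Summed over the 15 hydrolases, the level was 627, 327 and 577 CPM in the click libraries and 983, 1059 and 1832 CPM in the EDC libraries. Summed over the 14 pump genes it was 752, 572 and 654 CPM in click and 790.0, 978 and 1175 CPM in EDC. The click libraries lay below the EDC libraries in both sums, though for the pump click replicate 1 was close to EDC replicate 1. The ratio of hydrolase to pump reads was 0.834, 0.572 and 0.882 in click and 1.24, 1.08 and 1.56 in EDC, without overlap. The median log2 fold change of the hydrolases lay -0.96 from that of the pump genes. That difference was -1.60 within the read class above 0.5 (1 click and 2 EDC libraries) and -0.37 within the class below it (2 click and 1 EDC libraries). The hydrolase medians within these classes were -2.34 and -0.89, and the pump medians -0.74 and -0.52. Since the genes were chosen with earlier results of these data known, no p is given for these summaries.

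**Figure D4:**
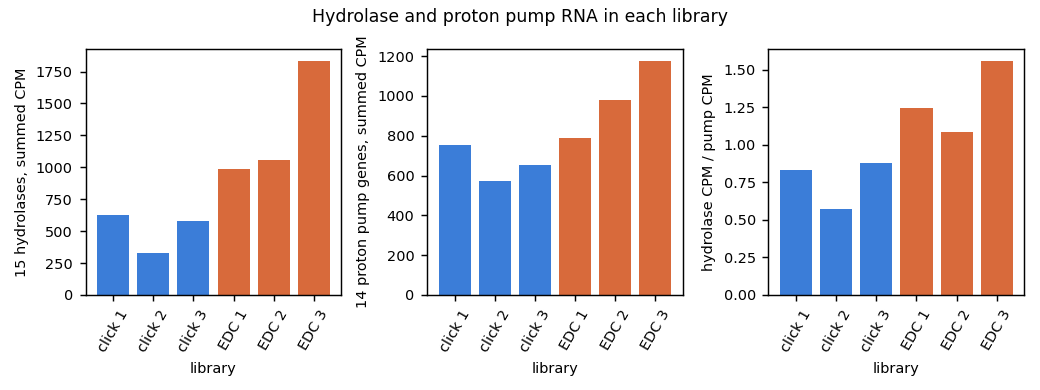
Summed level in CPM of the 15 hydrolases (left) and the 14 proton pump genes (middle), and the ratio of the former to the latter (right), in each library; blue bars are click, orange bars EDC, and axes start at 0. The ratio is 0.572 to 0.882 in click and 1.08 to 1.56 in EDC.

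Macrophage markers lay lower in the click libraries as well. All 14 macrophage markers tested had negative log2 fold changes, with a median of -1.93, and their summed level was 1214, 165 and 1055 CPM in click and 2350.3, 1835 and 4361 CPM in EDC. None of the 14 was at 0 reads in any library; Lyz2, lysozyme, had the most reads, and Cd68, itself a lysosomal membrane protein, is also counted among the other membrane proteins of the pathway. Click replicate 2 was the lowest and EDC replicate 3 the highest library for all 14, as for most hydrolases. Without click replicate 2, the hydrolase median was -1.20 and the pump median -0.51. Fibroblast markers (6 of 6 negative, median -1.05) ranged from 584 to 3569.8 CPM in click and from 3925 to 6239 CPM in EDC. Osteoclast or giant cell markers (6 of 6 negative, with Dcstamp at 0 reads in click replicate 2) ranged from 6.15 to 377 CPM in click and from 462 to 1445 CPM in EDC. The 5 of 8 neutrophil markers that were tested were all negative, 4 of the 8 were at 0 reads in some library (Retnlg, Ly6g, Mpo and Elane), and the sum over all 8 was 6.202 to 12.7 CPM in click and 10.7 to 165 CPM in EDC. Muscle fibre markers had a median of 0.44 (9 of 10 positive). In 4 of the 10 every click library lay above every EDC library, as in 1554 of all 15797 genes tested. Among these 4, Myh7 gave 5.39 (SE 1.41; edgeR adjusted p = 0.298; DESeq2 adjusted p = 0.00311) and Myh2 1.82 (SE 0.71). Myh7 was at 884, 1823 and 241 CPM in click and at most 57.4 CPM in EDC. Whether the muscle or the region sampled differed between the groups was not tested. Endothelial markers had a median of 0.03 (3 of 6 positive) and adipocyte markers one of -0.60 (4 of 5 negative). T cell markers were positive in 6 of 6, but their sum was 7.68, 28.4 and 176 CPM in click and 18.4, 10.3 and 15.4 CPM in EDC. The T cell sum of click replicate 1 was thus below that of every EDC library. Of the 4 B and plasma cell markers tested, 2 were positive. The part of these cell types in the lysosomal differences was not tested.

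**Figure D5:**
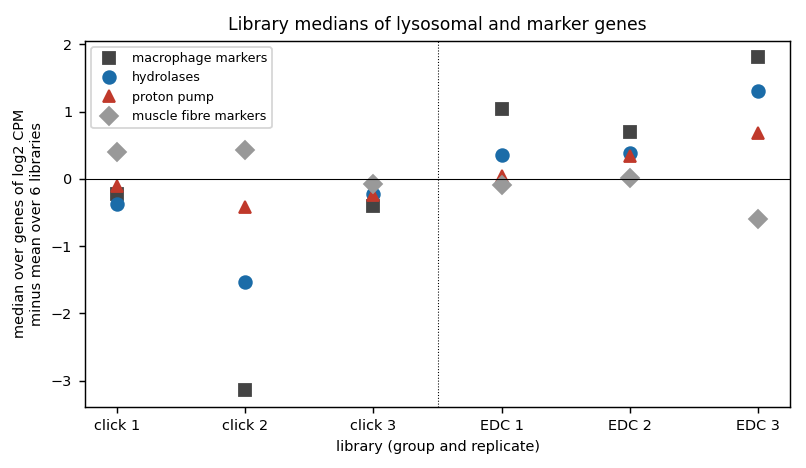
Median over genes of log2 CPM minus each gene's mean over the 6 libraries, for 14 macrophage markers, 15 hydrolases, 14 proton pump genes and 10 muscle fibre markers, in each library. Click replicate 2 has -3.14 for macrophage markers, -1.53 for hydrolases and -0.42 for the pump, and EDC replicate 3 has 1.81, 1.30 and 0.68.

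Other genes of the pathway followed their class in part. Of 23 further lysosomal enzymes and activators, 21 had negative log2 fold changes (median -0.96). With an unadjusted edgeR p under 0.05, 15 lay lower in click, against 8.0% of all genes. DESeq2 called 5, all lower in click, against 2.43% of the genes it adjusted. The smallest p were those of Acp2, a lysosomal acid phosphatase, at 17.8, 16.2 and 13.2 CPM in click and 25.9, 34.7 and 41.5 CPM in EDC (-1.12, SE 0.23), and of Galns, a sulphatase of keratan sulphate, at 3.51, 2.404 and 5.696 CPM in click and 10.4, 9.77 and 18.2 CPM in EDC (-1.72, SE 0.40). Other lysosomal membrane proteins had a median of -0.24 (14 of 19 tested negative). Litaf, an endosomal protein, gave -1.75 (SE 0.44), and Clcn7, the chloride-proton exchanger of lysosomes, gave -1.12 (SE 0.33). Of 10 genes that sort enzymes to the lysosome, 9 were negative (median -0.34), with Gnptab, which makes the mannose 6-phosphate tag, at -0.77 (SE 0.27) and the receptor gene M6pr at -0.80 (SE 0.32). None of these genes passed edgeR's threshold over all genes.

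Of 13 further genes of the pump that were tested, 7 for subunits and 6 for assembly factors or regulators, 10 were positive, with a median of 0.18. The positive values were those of 5 subunit genes (Atp6v0a2, Atp6v0e2, Atp6v1g1, Atp6v1g2 and Rnasek) and of 5 of the assembly factors and regulators. The genes of this list with the smallest p were Dmxl2 (-1.23, SE 0.41), whose product regulates pump assembly, and Tcirg1 (-1.61, SE 0.56). Tcirg1, the a3 subunit of osteoclasts and macrophages, was at 25.02, 5.86 and 18.9 CPM in click and 38.5, 35.2 and 77.8 CPM in EDC. The groups of Tcirg1 were apart, with click replicate 2 lowest and EDC replicate 3 highest, and those of the related Atp6v0a1 overlapped. Atp6v0d2, chosen after its values were seen as the counterpart of Atp6v0d1 in osteoclasts and macrophages, held 0 reads in click replicate 2. Its levels in click replicates 1 and 3 were 65.3 and 40.02 CPM, and those in EDC were 88.4, 128 and 206 CPM. The fitted log2 fold change of Atp6v0d2 was -2.003 (SE 1.47; edgeR adjusted p = 0.508) and depends on how the 0 is treated.

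Regulators and autophagy genes were centred near the median of all genes. Lysosomal regulators had a median of 0.11 (15 of 20 positive). Fnip2, a partner of folliculin, was at 14.8, 3.64 and 10.2 CPM in click and 26.1, 20.9 and 51.8 CPM in EDC (-1.78, SE 0.56). Rragd, a GTPase that recruits TFEB to lysosomes, went the other way, at 244, 352 and 192 CPM in click and 124, 176 and 103 CPM in EDC (0.97, SE 0.31; edgeR adjusted p = 0.298). The 23 autophagy genes had a median of 0.03, with 13 positive. Ulk2, a kinase that starts autophagy, gave 0.70 (SE 0.20), and Bnip3, a mitophagy receptor, gave 0.80 (SE 0.27), and both were higher in every click library than in any EDC library. None of these genes passed edgeR's threshold over all genes.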

How the data were processed

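Per the labels' protocols, 1 µg of total RNA from muscle, purified with an RNeasy kit, went into each SMARTER mRNA-Seq library. The authors deposited 1 table of raw read counts per gene for 6 libraries; the submitters' processing notes name build mm10. Not given in the sources used here are the aligner, the counter, the annotation and whether reads were counted by strand. Of 55335 lines, 3225 without a symbol (0.0631% to 0.0996% of reads) were left out, and 0 sample columns were unmapped. Counts were filtered by expression (filterByExpr), scaled by TMM factors and tested over 15797 genes with edgeR 4.0.16 (quasi-likelihood, group as the only term, threshold 0.05 after Benjamini-Hochberg adjustment) in R 4.3.3, and with DESeq2 1.42.0 and limma 3.58.1 as alternatives. The edgeR step was tested on simulated data. CPM use the TMM factors, and RPKM divide them by merged GENCODE M21 exons. Promoter windows are RefSeq's on GRCm38.p6; 5 of the 40 genes had none.

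The 40 genes, the pathway lists and the marker lists were chosen with earlier results of these data known, so no list is independent evidence. Values in every library are given, per role, for the gene with the highest RPKM, those with the extreme fold changes, and those whose groups are apart at an unadjusted p under 0.05; others are given in ranges or where a comparison needs them. From each pathway list the 2 genes with the smallest p are named. The smallest p an exact test of 3 against 3 libraries can give is 0.1, so no exact test is given. Alternatives changed the scaling, filter, tool and covariates, left out each library, and used each read class alone.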

Additional observations from a re-analysis of the deposited data

How the results depend on the processing

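The count of genes that edgeR called was 1, and DESeq2 called 605. It was 0 with limma-voom, with the replicate block, with the read class as a covariate, and with sex as one (taken from Xist and Ddx3y reads). Within the read class above 0.5 it was 1653, from 1 click and 2 EDC libraries, and within the class below it was 0. Leaving out 1 library gave 0 to 7. The count of lysosomal genes called was 0, with 15 by DESeq2, and it stayed at 0 with any 1 library left out. DESeq2 called 1 to 16 of them with 1 library left out. The count at an unadjusted p under 0.05 was 12 within the class below 0.5, and 13 to 26 with 1 library left out. The hydrolase median was -2.34 within the class above 0.5, and -1.76 to -1.08 with 1 library left out. The pump median was -0.95 with library totals, -0.74 within the class above 0.5, and -0.58 to -0.39 with 1 library left out. Their difference was -1.60 within the class above 0.5, -0.37 within the class below, and -1.28 to -0.68 with 1 library left out. The cause of these shifts was not tested.

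Signs turned for 7 genes. With library totals Tfeb was -0.059 and Atp6v1f -0.47. Within the class above 0.5, Gaa was 0.057, Scarb2 0.022, Atp6v0a1 0.10 and Atp6v1f -0.0065. Within the class below 0.5, Mcoln1 was 0.16, Atp6v0c 0.38 and Atp6v1f -0.0082, and with the class as a covariate Atp6v1f was -0.0040. Without EDC replicate 3, Mcoln1 was 0.034, Atp6v0a1 0.087, Atp6v0c 0.24 and Atp6v1f -0.043. Without click replicate 1, Atp6v0a1 was 0.0071 and Atp6v1f -0.13, and without EDC replicate 2 Gaa was 0.0050. With 1 library left out, the opposite end of the range was -0.14 for Gaa, -0.24 for Mcoln1, -0.46 for Atp6v0a1, -0.54 for Atp6v0c and 0.14 for Atp6v1f. The other 33 genes kept their sign in every setting run.

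Replicate numbers were not taken as a pairing, and 3 libraries per group cannot settle whether they are one. Same-numbered libraries correlated at -0.05, 0.19 and 0.28 in their deviations from the group means. Click replicates 2 and 3 correlated best with the EDC library of the same number, and click replicate 1 with EDC replicate 2 (0.09). Replicate 1 held Xist reads in both groups. With the replicate block the hydrolase median was -1.44, the pump median -0.46 and their difference -0.98. Precision is limited by the 3 libraries per group.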
